A study of Homo sapiens with 6 samples.

Results

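FPR1 and 7 other chemoattractant receptor genes were followed in THP-1 cells, an established human monocytic leukaemia line used as a model of monocytes, that were either controls or given recombinant human interleukin-6 (IL-6). The genes are FPR1, FPR2, C5AR1, C3AR1, CCR1, CCR2, CX3CR1 and CXCR4. They were picked by name, on condition that at least 4 of the 6 libraries held a value, and all 8 had a value in all 6 libraries, so none lay near that limit. In each deposited table of 60325 gene rows, 20823 genes met the same condition. FPR1 was put on the list for its response to IL-6 in these same libraries, so its IL-6 difference is given as a description and supports nothing further.

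There were 6 RNA-seq libraries of total RNA, 1 for each of control and IL-6 at 6, 24 and 48 h. The groups share the cell line and differ, per the labels, in agent and time, and the dose of IL-6 is not given in the sources used here. THP-1 is a single leukaemic line, so the values describe that line and not blood monocytes. With 1 library per condition, the 3 times stood in for replicates of IL-6 against control and the 2 agents stood in for replicates of a time. The p-values measure the spread between these libraries alone.

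Chemoattractant receptors are G-protein-coupled receptors that steer leukocytes along gradients of bacterial, complement and chemokine ligands. Most couple to Gi proteins, whose released beta-gamma subunits drive phosphoinositide 3-kinase gamma, Rac and actin assembly at the leading edge. FPR1 and FPR2 bind formylated peptides from bacteria and mitochondria, C5AR1 and C3AR1 bind the complement fragments C5a and C3a, and CCR1, CCR2, CX3CR1 and CXCR4 bind chemokines. IL-6 signals through the IL-6 receptor and gp130 to the transcription factor STAT3, which binds palindromic TTCNNNGAA elements.

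The windows upstream of the members' start sites were read for that palindrome and for GAGGAA, the core of the element bound by the myeloid factor PU.1. Both strands were searched in RefSeq promoter windows of 300 bases, 250 before to 50 after each start, on GRCh38.p14. All 8 members matched a window, and the 8 genes had 13 windows in all. TTCNNNGAA occurred in 7.66% of 35116 such windows and GAGGAA in 27.9%. A match describes the letters only, and no binding was measured.

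The 4 windows shown were cut back to the bases outside annotated exons. They are those of FPR1, the member with the largest IL-6 difference, C3AR1, a member with one of the widest ranges, and CCR1 and CX3CR1, which held the palindrome. All 4 genes lie on the minus strand and the sequences run 5′ to 3′ along the gene. Capitals mark a match to either motif.
FPR1, chr19:51751910-51752128: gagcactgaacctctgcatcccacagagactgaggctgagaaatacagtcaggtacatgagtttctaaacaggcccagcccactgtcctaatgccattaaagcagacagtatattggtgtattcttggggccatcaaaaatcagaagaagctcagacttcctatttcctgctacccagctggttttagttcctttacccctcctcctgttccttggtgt
C3AR1, chr12:8066472-8066609: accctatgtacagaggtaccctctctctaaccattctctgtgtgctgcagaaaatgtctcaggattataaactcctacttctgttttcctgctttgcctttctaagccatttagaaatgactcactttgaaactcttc
CCR1, chr3:46208397-46208563: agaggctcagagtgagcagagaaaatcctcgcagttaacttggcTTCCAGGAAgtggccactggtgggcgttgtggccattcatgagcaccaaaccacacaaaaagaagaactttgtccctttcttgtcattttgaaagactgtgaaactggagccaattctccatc
CX3CR1, the third of its windows, chr3:39280442-39280691: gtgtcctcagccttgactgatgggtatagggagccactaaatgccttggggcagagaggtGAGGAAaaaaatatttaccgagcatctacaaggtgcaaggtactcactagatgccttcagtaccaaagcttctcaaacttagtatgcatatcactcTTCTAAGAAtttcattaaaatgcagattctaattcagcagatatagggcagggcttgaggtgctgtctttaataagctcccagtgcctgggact
The FPR1 window held neither motif, and nor did that of C3AR1 or CCR2. The FPR1 and C5AR1 windows lie inside the spans of the deposited genes. The 5′ ends of those spans, at 51804110 for FPR1 and 47290023 for C5AR1, were not read. In CCR1 the palindrome began at position -206 from the start site. In CX3CR1 it began at position -94 and the PU.1 core at -190. Of the 2 FPR2 windows, 1 held the palindrome and none the PU.1 core. The PU.1 core was also found in the C5AR1 window and in 2 of 3 CXCR4 windows.

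Each deposited log2 value is relative to the gene's own mean over the libraries, so the tables give differences between libraries and not levels. For 7 members a level was recovered from the whole-number ratios between libraries, in an arbitrary unit. Among genes of up to 1600 bases, shorter than any member, that unit behaved as a value per length of transcript. The recovered mean levels ran from 0.488 for C5AR1 through 2.71 for C3AR1, 4.77 for FPR1, 6.17 for FPR2, 30.1 for CX3CR1 and 39.7 for CCR1 to 73.5 for CCR2. On this scale the chemokine receptors with a level stood above the complement and formyl peptide receptors. For CXCR4 no level was recovered, and it was treated as high. The CCR2 level is uncertain, as 73 of 1000 decoys made from its values were matched by accident at or below that level, against 4 for CCR1 and 0 for the other 5.

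**Figure D1:**
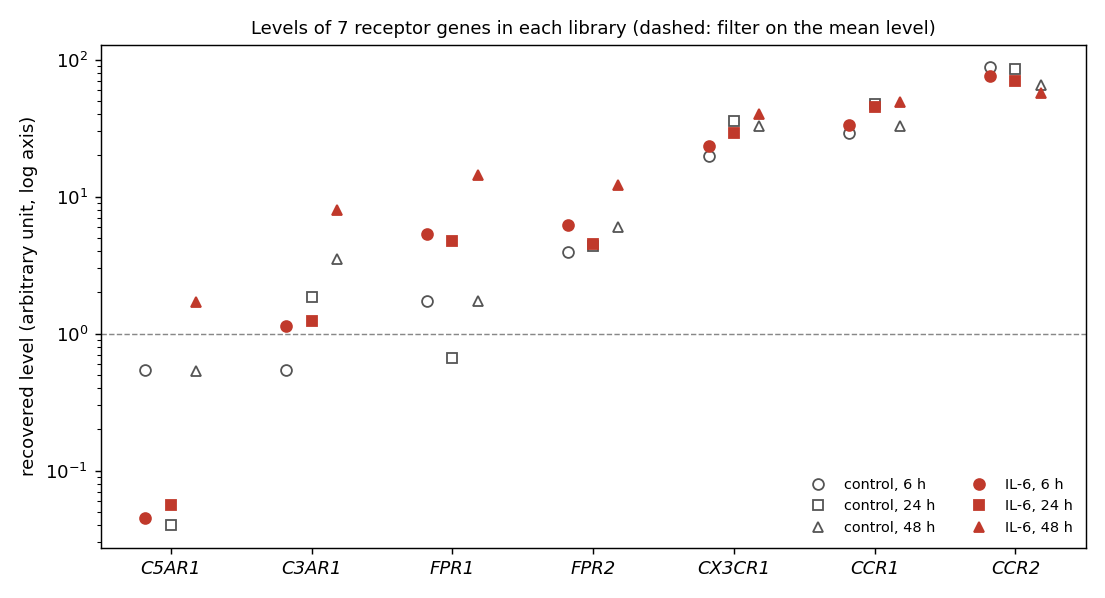
Recovered level (arbitrary unit, log axis) of 7 receptor genes in each of the 6 libraries, 1 point per library, with open grey symbols for control and filled red symbols for IL-6, and the shape for the time. C5AR1 lies between 0.0402 and 1.71 and CCR2 between 57.3 and 87.8, and the 3 IL-6 points of FPR1 lie above its 3 control points.

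The tests were run on the 13504 genes with a value in all 6 libraries and a mean level of at least 1, or with no recovered level. The fit was limma with terms for agent and time, and p-values were adjusted by the Benjamini-Hochberg method over all 13504 genes. Of the 8 members, 7 were tested, and C5AR1 fell below the level filter. For the IL-6 difference 0.252% of all genes tested passed an adjusted p of 0.05, 33 higher and 1 lower with IL-6. Of the 7 tested members, 1 passed, FPR1, which was chosen for that difference. The median IL-6 difference over all tested genes was -0.03 on the log2 scale.

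In the control libraries the level of FPR1, the high-affinity receptor for formylated peptides, was 1.73, 0.668 and 1.72 at 6, 24 and 48 h. With IL-6 it was 5.32, 4.73 and 14.4 at those times. All 3 IL-6 libraries stood above all 3 controls, the lowest control was at 24 h and the highest IL-6 library at 48 h. These are bulk libraries, in which more cells with the transcript and more transcript per cell cannot be told apart. Such a separation was seen in 3.51% of all genes tested and in 1 of the 8 members. In order of level, the controls at 48 and 6 h differed by 0.01 on the log2 scale and the IL-6 libraries at 24 and 6 h by 0.17. Both gaps were within the residual SD of 0.38, as moderated by limma, while the other neighbours were at least 1.37 apart.

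The level of FPR1 with IL-6 was 3.07-fold that of the control at 6 h, 7.08-fold at 24 h and 8.38-fold at 48 h. On the log2 scale those differences were 1.62, 2.82 and 3.07, with an SD of 0.77 over the 3 times. The limma estimate was 2.50 ± 0.31 (moderated SE, 3 pairs), with a 95% interval of 1.81 to 3.20 and a limma adjusted p of 0.0111. This SE and the others of the fit use a variance that limma moderates with those of other genes. They do not measure the spread of a gene's own 3 ratios alone. Without the 24 h libraries the estimate was 2.34 with a limma adjusted p of 0.139, and without the 48 h libraries 2.22 with 0.0525. The call was also lost without the time term (limma adjusted p = 0.52), without the variance trend (0.485) and with non-robust moderation (0.0545), so it held in 4 of 9 alternatives.

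The controls alone moved by -1.37 from 6 to 24 h and by 1.37 from 24 to 48 h on the log2 scale for FPR1. In the IL-6 libraries the same steps were -0.17 and 1.61. Both agents were therefore lowest at 24 h. The 24 h fold of 7.08 was thus taken against the lowest control, and the IL-6 level at 24 h was below that at 6 h.

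FPR2, the lower-affinity formyl peptide receptor that also binds serum amyloid A and annexin A1, had control levels of 3.93, 4.34 and 6.01 at 6, 24 and 48 h. Its IL-6 levels were 6.22, 4.48 and 12.1. IL-6 was above control at each time, by 1.58-fold, 1.03-fold and 2.01-fold, but the IL-6 library at 24 h lay below the control at 48 h, so the groups overlapped. The fitted IL-6 difference was 0.57 ± 0.25 on the log2 scale (moderated SE, 3 pairs), with a 95% interval of 0.02 to 1.13. It did not pass after adjustment (limma adjusted p = 0.542). The highest library stood 0.95 above the next on the log2 scale, against a moderated residual SD of 0.31.

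FPR1 (ENSG00000171051.9) lies on chromosome 19 from 51745172 to 51804110, minus strand, in GRCh38. FPR2 (ENSG00000171049.9) lies inside that span on the plus strand, from 51752026 to 51770531. The kit does not mark strand, but no exon of one overlapped an exon of the other in GENCODE 29. Another deposited gene that overlaps the FPR1 span was not found in GENCODE 29 by name. The exons counted by the authors may therefore differ from those compared. FPR3, the remaining formyl peptide receptor gene, also overlaps the FPR1 span and was listed in 1 library. The FPR1 and FPR2 differences were not of one size, and the difference between them was not tested.

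C5AR1, the receptor for the complement fragment C5a (ENSG00000197405.8, chromosome 19, 47290023 to 47322066, plus strand), was the lowest member. Its control levels were 0.545, 0.0402 and 0.533 at 6, 24 and 48 h. With IL-6 the levels were 0.0448, 0.0563 and 1.71. The values were at most 0.0563 in 3 libraries and at least 0.533 in the other 3, and each agent had libraries in both sets. The ratio of IL-6 to control was 0.0822, 1.40 and 3.20 at the 3 times, so it changed direction. Its range over the libraries was 42.4-fold, the widest of the 8, and its lowest value lay near the floor of the recovered scale, 0.00998. Fitted without the level filter, the IL-6 difference was -0.48 ± 0.98 on the log2 scale, with a 95% interval of -2.71 to 1.75 (limma adjusted p = 0.938).

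C3AR1, the receptor for C3a (ENSG00000171860.5, chromosome 12, 8056844 to 8066359, minus strand), had control levels of 0.547, 1.86 and 3.49 at 6, 24 and 48 h. With IL-6 its levels were 1.13, 1.23 and 7.99. In the controls the value was higher at each later time, and the highest library was IL-6 at 48 h. IL-6 was above control at 6 h by 2.07-fold and at 48 h by 2.29-fold, but below it at 24 h, at 0.664 of the control. The groups overlapped, and the fitted IL-6 difference was 0.55 ± 0.40 on the log2 scale with a 95% interval of -0.34 to 1.45 (limma adjusted p = 0.755).

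**Figure D2:**
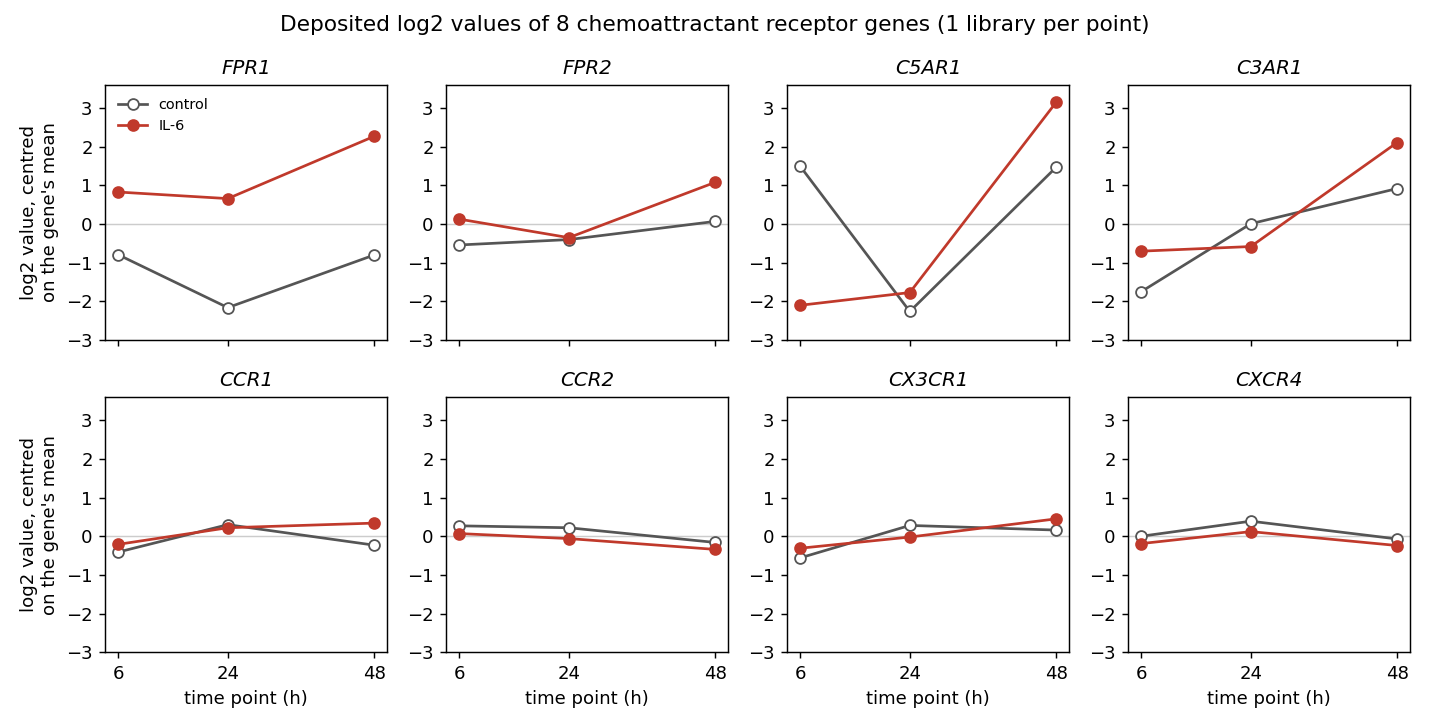
Deposited log2 value, centred on each gene's mean (vertical axis), against the time point in hours, with 1 library per point, open grey for control and filled red for IL-6. FPR1 shows separate lines, from -2.16 to -0.79 in controls and from 0.66 to 2.27 with IL-6, while C5AR1 and C3AR1 cross between the agents and the 4 chemokine receptors stay between -0.56 and 0.45.

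CCR1, which binds CCL3 and CCL5 among other inflammatory chemokines, had levels of 29.2, 47.8 and 33.1 in the controls at 6, 24 and 48 h. With IL-6 they were 33.5, 45.1 and 49.2. The 2 agents lay close together at 6 and 24 h, and IL-6 was above control at 48 h by 0.57 on the log2 scale. The fitted IL-6 difference was 0.23 ± 0.15, with a 95% interval of -0.10 to 0.55 (limma adjusted p = 0.702). CCR1 (ENSG00000163823.4, chromosome 3, 46201711 to 46208313, minus strand) lies within the span of CCR3, which was listed in 5 libraries. No exons of the pair overlapped in GENCODE 29, which may differ from the authors' annotation.

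CCR2, the main receptor for CCL2 and a marker of classical monocytes (ENSG00000121807.7, chromosome 3, 46353864 to 46360940, plus strand), had levels of 87.8, 84.9 and 64.9 in the controls at 6, 24 and 48 h. With IL-6 they were 76.5, 69.5 and 57.3. IL-6 was below control at each time, by -0.20, -0.29 and -0.18 on the log2 scale, and the lowest library was IL-6 at 48 h. The control at 48 h lay below the IL-6 libraries at 6 and 24 h, so the groups overlapped. The fitted difference was -0.22 ± 0.11 (moderated SE, 3 pairs), with a 95% interval of -0.46 to 0.02 (limma adjusted p = 0.586).

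CX3CR1, the receptor for the membrane-tethered chemokine fractalkine (ENSG00000168329.14, chromosome 3, 39263495 to 39281735, minus strand), had levels of 19.9, 35.6 and 32.7 in the controls at 6, 24 and 48 h. With IL-6 they were 23.6, 29.0 and 39.9. The lowest 2 libraries were the pair at 6 h, and IL-6 was above control at 6 and 48 h and below it at 24 h. The fitted difference was 0.08 ± 0.15, with a 95% interval of -0.26 to 0.42 (limma adjusted p = 0.924), and its sign turned when the 48 h pair was left out (-0.03).

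CXCR4, the receptor for CXCL12 (ENSG00000121966.7, chromosome 2, 136114349 to 136118149, minus strand), has no recovered level. Its deposited log2 values were 0.00, 0.39 and -0.07 in the controls at 6, 24 and 48 h, beside -0.19, 0.12 and -0.24 with IL-6. The control at 24 h was the highest library and the groups overlapped. IL-6 was below control at each time, by -0.19, -0.27 and -0.17. The fitted difference was -0.21 ± 0.10, with a 95% interval of -0.44 to 0.02 (limma adjusted p = 0.586). CCR2 and CXCR4 had the steadiest ratios of the 8, with SDs of 0.06 and 0.05 over the 3 times, but both differences were small.

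**Figure D3:**
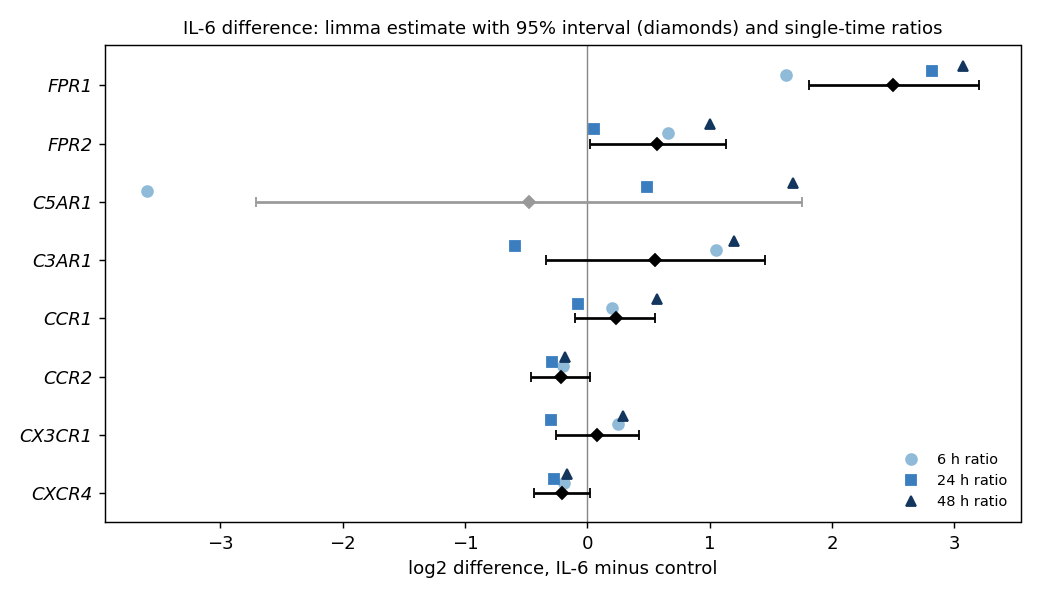
Log2 difference between IL-6 and control (horizontal axis) for the 8 receptor genes: diamonds with bars are limma estimates with 95% intervals, grey for C5AR1, fitted without the level filter, and the other symbols are the single ratios at 6, 24 and 48 h. The FPR1 interval runs from 1.81 to 3.20, the CCR2 and CXCR4 intervals end at 0.02, and the C5AR1 ratios spread from -3.60 to 1.68.

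Counted over the 8 genes, IL-6 was above control in 5 at 6 h, 3 at 24 h and 6 at 48 h. In 4 genes the sign was the same at all 3 times, higher for FPR1 and FPR2 and lower for CCR2 and CXCR4. The share of all tested genes with these signs at single times was not computed, so the counts describe the 8 members alone. Over all tested genes the fitted IL-6 difference was above 0 in 44.0%. The counts include C5AR1, whose lowest value lay near the floor. Among the 7 tested members, 2 were at least 2-fold higher with IL-6 at 6 h, FPR1 and C3AR1, against 3.43% of all genes tested. At 24 h it was 1, FPR1, against 2.74%, and at 48 h it was 3, FPR1, FPR2 and C3AR1, against 3.48%. No tested member was at least 2-fold lower at any time.

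The library given IL-6 for 48 h held the highest value of 6 of the 8 genes and the lowest value of the other 2, CCR2 and CXCR4. Its gap to the next library was 0.04 for CCR1, 0.17 for CX3CR1 and 0.06 for CXCR4 on the log2 scale. These gaps lay within the moderated residual SDs of 0.18, 0.19 and 0.13, so those ranks are uncertain. For FPR1, FPR2, C3AR1, CCR2 and the untested C5AR1 the gap was larger than that SD. Over all tested genes, the IL-6 library at 48 h held the highest value of 17.2% and the lowest of 20.9%. The 6 h control held the lowest value of 4 genes, FPR2, C3AR1, CCR1 and CX3CR1, and of 18.8% of all tested genes. For FPR2 it lay 0.14 below the next library, within the moderated SD of 0.31, while for C3AR1, CCR1 and CX3CR1 the gap was not within that SD. The IL-6 library at 48 h had 527 tested genes at least 2-fold from their own mean, the second highest count of the 6 libraries, which ran from 318 to 536. Its part in the members' values was not tested.

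For time, the 24 h libraries of both agents were compared with those at 6 h, and those at 48 h with those at 24 h. In the first comparison 1.95% of all genes tested passed and in the second 0.518%, and none of the 7 tested members passed either. The median difference over all tested genes was 0.11 from 6 to 24 h, so values are to be read against that shift. From 6 to 24 h, CCR1 and CX3CR1 were each 0.57 higher, with SEs of 0.18 and 0.19 and limma adjusted p-values of 0.136 and 0.158. FPR1 differed by -0.77 ± 0.38 over that step (limma adjusted p = 0.335).

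From 24 to 48 h the largest differences among tested members were those of C3AR1, at 1.80 ± 0.49 (limma adjusted p = 0.172), and FPR1, at 1.49 ± 0.38 (0.153). FPR2 differed by 0.95 ± 0.31 (limma adjusted p = 0.243) and CXCR4 by -0.41 ± 0.13 (0.216). Without the IL-6 library at 48 h the estimates were 1.32 for C3AR1, 1.06 for FPR1 and 0.62 for FPR2, with limma adjusted p-values of 0.705, 0.686 and 0.815. In the controls alone C3AR1 was 0.91 higher and FPR2 0.47 higher at 48 h than at 24 h on the log2 scale.

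Many other receptors of the class were not listed throughout. Of 30 further chemoattractant receptor genes, 12 were listed in all 6 libraries, 12 in some and 6 in none, while of all gene rows 28.8% were listed in all 6 and 50.8% in none. CXCR2, an interleukin-8 receptor, had a mean level of 42.2, above that of CCR1. Both lay above 34.0, where decoys began to match by accident, so that order is uncertain. C5AR2, the second C5a receptor, was listed in all 6 libraries at a mean level of 0.163. None of the 9 that could be tested passed for IL-6, and their median difference was -0.20, with 2 of 9 above 0.

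**Figure D4:**
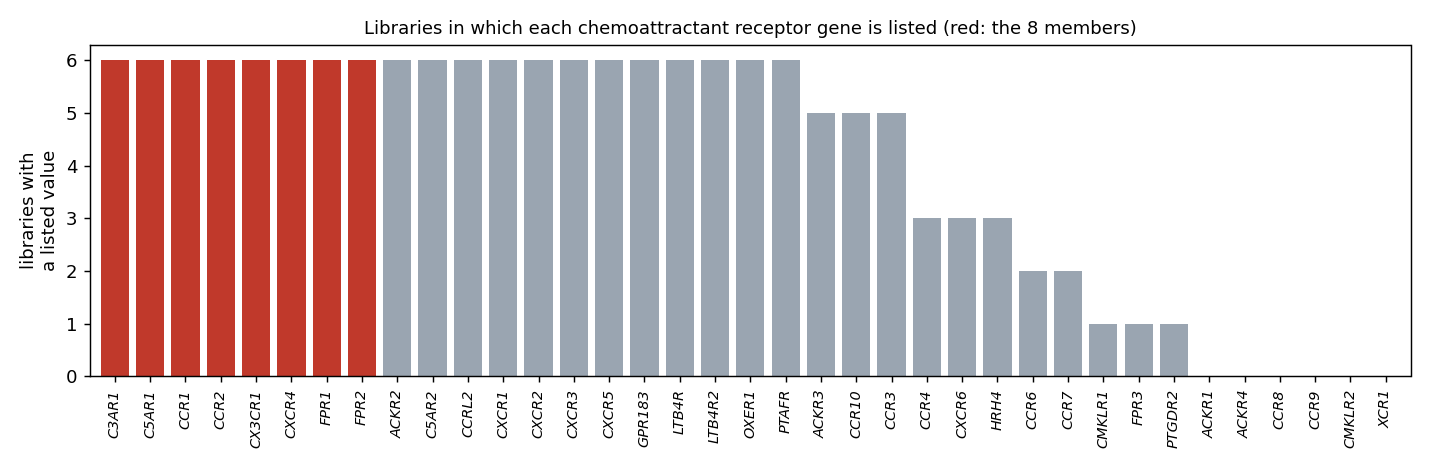
Number of libraries out of 6 (bar height, from 0) in which each of 37 chemoattractant receptor genes has a listed value, with the 8 members in red and 29 others in grey. All 8 members and 12 of the others shown reach 6, and 6 are at 0.

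CXCR1, the second interleukin-8 receptor, had deposited log2 values of -1.25, -0.95 and -0.61 in controls and 0.39, 0.22 and 2.21 with IL-6 at 6, 24 and 48 h. All 3 IL-6 values were above all 3 controls, as in 3.51% of all genes tested, but the fitted difference of 1.87 ± 0.51 did not pass (limma adjusted p = 0.268). The CXCR1 levels were low, at 0.32, 0.394 and 0.5 in controls and 0.995, 0.885 and 3.52 with IL-6. Its mean of 1.1 passed the level filter of 1 only through the IL-6 library at 48 h, so the separation is a description only. PTAFR, the receptor for platelet-activating factor, had log2 ratios of 0.23, 0.82 and 2.10 at the 3 times and a fitted difference of 1.05 ± 0.34 (limma adjusted p = 0.374). LTB4R2, a leukotriene B4 receptor, differed by -0.94 ± 0.36 (limma adjusted p = 0.447). For time, GPR183, an oxysterol receptor, was lower at 48 h than at 24 h by -1.20 ± 0.19 (limma adjusted p = 0.0249), and it was named after its values were seen.

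Among 28 genes for ligands or for enzymes that make or cut them, 18 were tested and 1 passed for IL-6, CCL2, a ligand of CCR2. Its deposited log2 values were -0.70, -1.18 and -1.16 in controls and 1.20, 0.79 and 1.04 with IL-6 at 6, 24 and 48 h. The groups did not overlap and the difference was nearly the same at each time, 2.02 ± 0.15 on the log2 scale (limma adjusted p = 0.000208). CCR2 was below control in each pair without passing the test, and a link between CCL2 and CCR2 was not tested. CCL3, a ligand of CCR1, differed by 1.41 ± 0.37 (limma adjusted p = 0.247) and CCL4 by 0.55 ± 0.43 (0.773). The median over the 18 was -0.01.

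Of 3 genes for ligands of the formyl peptide receptors, none passed for IL-6. ANXA1 differed by 0.40 ± 0.14 (limma adjusted p = 0.400), CTSG by -0.50 ± 0.13 (0.257) and CAMP, the precursor of LL-37, by 0.36 ± 0.20 (0.658), all named after their values were seen. SAA1 was listed in 1 library, CX3CL1, which encodes fractalkine, in 1, and CXCL12 in 4. LGALS3, for galectin-3, was the ligand gene that passed for time, lower at 24 h than at 6 h by -0.99 ± 0.14 (limma adjusted p = 0.00718), and was also named after its values were seen.

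Below the receptors, none of the 37 tested of 40 G-protein and signalling genes passed for IL-6, and their median was -0.09. Among the largest differences were those of ADCY7, an adenylyl cyclase, at -0.60 ± 0.20 (limma adjusted p = 0.377), and PIK3R5, a subunit of phosphoinositide 3-kinase gamma, at -0.59 ± 0.26 (0.543). Of 19 genes for receptor desensitisation and trafficking, 17 were tested and none passed, with a median of 0.00. The largest differences there were 0.72 ± 0.21 for RGS16 (limma adjusted p = 0.301), -0.54 ± 0.26 for RGS2 (0.586), both GTPase activators that shorten G-protein signals, and -0.24 ± 0.11 for NHERF1, a scaffold protein (0.586).

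PIM1, BCL3, SOCS3 and STAT3, genes of the IL-6 response, were read in the same fit beside the labels. The members and lists were chosen with earlier results of these data known, so these genes are no independent check of the labels. PIM1 was higher with IL-6 by 2.67 ± 0.18 (limma adjusted p = 0.000208), BCL3 by 2.48 ± 0.15 (0.000124) and STAT3 by 0.78 ± 0.12 (0.0266). SOCS3 differed by 2.54 ± 0.48 (limma adjusted p = 0.108). Its levels were 0.715, 0.984 and 0.509 in controls, each below the level filter of 1, and 3.19, 2.58 and 8.48 with IL-6. SOCS3 therefore entered the test only through its IL-6 libraries. The FPR1 difference of 2.50 was of the size of those of PIM1, BCL3 and SOCS3, with an SE of 0.31 against 0.18, 0.15 and 0.48. FPR1 was chosen for that difference, so its size is a description only.

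By Pearson correlation over the 6 libraries, the genes most like FPR1 among 13502 compared were SPAG1 (0.989), GLIPR2 (0.980), MTHFD1L (0.977), CCNH (0.972) and LIN52 (0.971), and 17 genes reached 0.95. These values are a description over 6 points that share their libraries. The amplitude was much smaller than that of FPR1, with fitted IL-6 differences from 0.29 for CCNH to 0.51 for GLIPR2, none of which passed. Among the members, FPR2 had the highest correlation with FPR1, 0.77, and CXCR4 the lowest, -0.79.

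Markers were read for the cell type of the label and for other cells. All 11 monocyte markers were listed in all 6 libraries. Their fitted IL-6 differences were below 0 in 8 and above 0 in 3, with a median of -0.24 and a range of -0.44 for CD4 to 2.07 for CD14. The 1 that passed was FCGR1A, the high-affinity Fc-gamma receptor, higher with IL-6 by 0.65 (limma adjusted p = 0.0343). CD14, which like FPR1 was highest relative to control at 48 h, had ratios of 0.71, 1.74 and 3.76 on the log2 scale at the 3 times and a fitted difference of 2.07 ± 0.85 (limma adjusted p = 0.677). Of 8 neutrophil markers 4 were listed in all 6 libraries and LTF in none, and the summed level of the 3 with a level was 48.8 to 66.9 in controls and 42.6 to 47.1 with IL-6. Most of that sum was CXCR2, at 36.6 to 58.3 in controls and 32.1 to 35.8 with IL-6, levels in the range where decoys matched by accident. Of the 4 tested neutrophil markers, 2 had fitted differences below 0 and 2, CXCR1 and CAMP, above 0. Those below 0 were CXCR2, at -0.53 ± 0.14 (limma adjusted p = 0.255), and CSF3R, at -0.27 ± 0.13 (0.586). Of 6 T and NK cell markers 1 was listed in all 6 libraries, at a level of 0.705 to 1.53 in controls and 0.0115 to 1.08 with IL-6, and CD3E and CD2 were in none. Of 4 B cell markers 3 were listed in all 6, with a summed level of 5.09 to 7.22 in controls and 5.21 to 8.08 with IL-6, and MS4A1 was in none. Of 4 erythroid and platelet markers 1 was listed in all 6, at 5.21 to 14.1 in controls and 6.65 to 9.38 with IL-6, and HBB and PPBP were in none. The part of these markers in the receptor values was not tested.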

How the data were processed

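Total RNA of 6 THP-1 libraries was amplified with the SMART-Seq v4 kit and tagged with Nextera XT, per the labels' protocols. Neither marks strand. The build was GRCh38 (hg38), per the submitters' processing notes. How the authors aligned, counted and scaled the reads is not given in the sources used here. The authors deposited 1 log2 value per gene and library, and each gene's values average 0 to within 8.4e-08. The tables hold no counts, so depth is unknown and no counting interval is given. The libraries list 22000 to 23108 genes.

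A level was recovered for 90.3% of the 17388 genes with 6 values, as whole multiples of a step taken as 0.001 after 1 offset per library. Of 2000 decoys 141 matched by accident, none below a mean level of 34.0. Among genes of low level, a low percentile of each gene's lowest recovered level fell with exonic length, as values per length would. It went from 0.139 (genes up to 400 bases) to 0.0242 (801 to 1600 bases). The members, at 1895 to 3531 bases, are longer than the genes compared.

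Genes whose level averaged 1 or more, or had none recovered, were fitted with limma 3.58.1 in R 4.3.3 on the deposited log2 values, with terms for agent and time, a variance trend and robust moderation (2 residual degrees of freedom, median prior 8.15), and called at an adjusted p of 0.05. Time is the block that pairs each IL-6 library with its control. Alternatives were no level filter, a mean level of at least 5, log2(level + 1), equal library medians, no variance trend, non-robust moderation, no time term, and leaving out each pair. Leaving out the IL-6 library at 48 h was added after seeing the data.

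The members and lists were chosen with earlier results of these data known. Named genes were the members, every gene of a list past the threshold for IL-6, the 3 with the largest IL-6 difference in each list, the 5 most correlated with FPR1, and PIM1, BCL3, SOCS3 and STAT3. A few genes of the lists are counted but not reported here by name.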

Additional observations from a re-analysis of the deposited data

Results flagged for a closer look

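C5AR1 moved in opposite directions at different times. Its log2 ratio of IL-6 to control was -3.60 at 6 h and 1.68 at 48 h, each at least 2-fold. The difference between the times was not tested, as there was 1 library per condition. The levels behind the 6 h ratio were 0.0448 with IL-6 and 0.545 in the control, and on the log2(level + 1) scale that ratio was -0.56.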

How the results depend on the processing

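FPR1 passed in 4 of the 9 alternatives that could be run. Its ratio was above 0 at each time, so leaving out a pair or changing the moderation could not turn its direction. Its limma adjusted p was 0.0489 without the level filter, 0.00991 on log2(level + 1) (estimate 1.83), 0.0162 with equal library medians, 0.0545 with non-robust moderation, 0.485 without the variance trend and 0.52 without the time term. Leaving out a pair gave 1.3e-05 (6 h), 0.139 (24 h) and 0.0525 (48 h). At a mean level of at least 5 FPR1 was not tested. No other tested member passed for IL-6 under any of these. The CX3CR1 IL-6 difference turned sign with pairs left out, from -0.03 (without 48 h) through -0.00 (without 6 h) to 0.27 (without 24 h). The FPR1 ratio at 24 h was 1.78 on log2(level + 1), and with equal medians the 24 h ratios of CCR2 and CXCR4 were -0.21 and -0.19.

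The 34 genes called for IL-6 became 13 without the level filter, 12 with non-robust moderation, 4 without the time term (no block pairing the libraries by time), 0 without the variance trend (1086 at an unadjusted p under 0.05 by limma), and 16 (without 24 h) to 112 (without 6 h) when 1 pair was left out. The 263 genes called from 6 to 24 h became 148 without the filter, 0 without the trend (1918 unadjusted) and 561 without the IL-6 library at 48 h. With equal medians they were 143 higher and 67 lower, against 223 and 40. The 70 genes from 24 to 48 h became 10 without the filter and 0 without the trend (1252 unadjusted). The cause of these shifts was not tested. Depth is unknown, so values of the lowest members, C5AR1 above all, carry an error that cannot be given.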
